A study of Mus musculus with 48 samples.

Results

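Potassium channel genes were followed across 4 dopamine-related brain tissues and across the day. The genes were those whose mouse symbol is Kcn, further letters and a closing number, and each was represented by the array row with the highest mean. Of 86 such genes with a row of their own, 84 reached a mean log2 level of 5.05 over the 48 arrays and form the set described here, among 17258 genes tested in all. Kcnmb3 at 5.24, Kcnv2 at 5.31 and Kcne3 at 5.39 lay just inside that limit, and Kcnj1 at 4.8 and Kcnu1 at 4.27 lay outside it. A further 4 rows carried several symbols and were not used. The choice rested on names and on the mean over all arrays, so neither tissue nor time of day entered it.

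Male C57BL/6 mice lived under a light cycle of 12 h on and 12 h off and were killed at 4-h steps through 2 days, from Zeitgeber time (ZT, hours after lights on) 11 onward. SN/VTA is the ventral midbrain piece with the substantia nigra and ventral tegmental area, PFC is prefrontal cortex, STR is striatum and HAB is habenula. Each tissue has 12 arrays, 2 per time at ZT03, ZT07, ZT11, ZT15, ZT19 and ZT23, 1 from each 24-h cycle. Every array held pooled RNA of 3 mice on an Affymetrix Mouse Gene 2.0 ST array, so a value is the mean of 3 animals and the spread between single mice cannot be seen. All mice were untreated and of 1 strain and sex; their age and the genotype beyond the strain name are not stated in the labels, nor is it said whether the 4 tissues of a time came from the same mice.

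Potassium channels let potassium leave neurons and glia and so set the resting potential, end action potentials and control how often a neuron fires. Voltage-gated pores open on depolarization, inward rectifiers hold the cell near rest and include channels opened by G proteins below dopamine D2, GABA-B and opioid receptors, two-pore-domain channels carry leak current, and calcium- or sodium-activated channels follow earlier activity. Modifier and accessory subunits do not conduct by themselves and change where, how fast and at what voltage a pore opens. In clock neurons of the suprachiasmatic nucleus several of these channels are known to take part in the daily rhythm of firing.

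The deposited log2 levels were close between the 2 arrays of a tissue and time (r over genes 0.982 to 0.995), and each of the 48 arrays correlated best with an array of its own tissue. The defining markers were in place, with 5 of 5 midbrain genes higher in SN/VTA, 5 of 5 cortical genes higher in PFC, 4 of 4 striatal genes higher in STR and 5 of 5 habenular genes higher in HAB. Not all were particular to their tissue. Of the cortical genes 2 were also higher in HAB (Neurod6 and Slc17a7), and of the striatal genes 1 was also higher in SN/VTA (Drd2). Other cell types moved with tissue too. Of 6 oligodendrocyte markers 5 were higher in SN/VTA and 4 were lower in PFC. Of 5 thalamic markers 3 were higher in SN/VTA, 4 were lower in PFC and 3 lower in STR, and in HAB 4 of 5 thalamic, 4 of 5 hippocampal and 3 of 5 choroid plexus markers were higher. Within HAB, 7 arrays had a mean over the choroid plexus markers of 9.46 to 9.91 and the other 5 had 7.43 to 7.87, a split that the Kcne2 values below also show. Levels come from different probes and are compared here between tissues for 1 gene, never between genes.

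The potassium channel genes differed between tissues, often by more than 2-fold, and none passed a 24-h test of time of day. In a comparison of each tissue with the mean of the other 3, a gene was called at a log2 difference of at least 1 (2-fold) with an adjusted p under 0.05. By that rule 28 of the 84 genes (33.3%) were called in at least 1 tissue, against a background of 9.17% of all genes tested. The range between the lowest and highest tissue mean had a median of 0.84 for the channel genes and 0.52 for all genes on the log2 scale. That range was at least 1 for 33 channel genes, while 16.8% of all genes reached it, and at least 2 for 6 channel genes, while 2.09% of all genes did. A test for any difference between tissues passed for all 84 channel genes and for 95.2% of all genes.

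Calls in both directions were present in 3 of the tissues. SN/VTA had 5 channel genes higher (background 2.25%) and 7 lower (background 1.3%), PFC had 7 higher (background 2.34%) and 5 lower (background 2.94%), and STR had 5 higher (background 1.03%) and 7 lower (background 1.16%). In HAB 4 were higher (background 1.4%) and 0 were lower (background 0.678%). At that background, 0 of 84 does not set the channel genes apart. HAB had the lowest tissue mean for 23 of them (27.4%), beside 20.3% of all genes. After quantile normalization Kcna5 and Kcnh4 were called lower in HAB. The median difference of the channel genes was small in each tissue, at -0.02 in SN/VTA, 0.01 in PFC, -0.04 in STR and -0.06 in HAB, beside 0.05, -0.05, -0.02 and -0.02 for all genes in the same order. In 29 of the 40 calls all 12 arrays of the tissue lay beyond the other 36 arrays. There were 16 genes called in 1 tissue and 12 in 2. The 4 contrasts share arrays, since each tissue is part of the mean that the others are set against, so the calls of 1 gene are not independent. As the tissues are mixtures of cells, fewer cells of a type and less RNA per cell cannot be told apart in any of these differences.

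**Figure D1:**
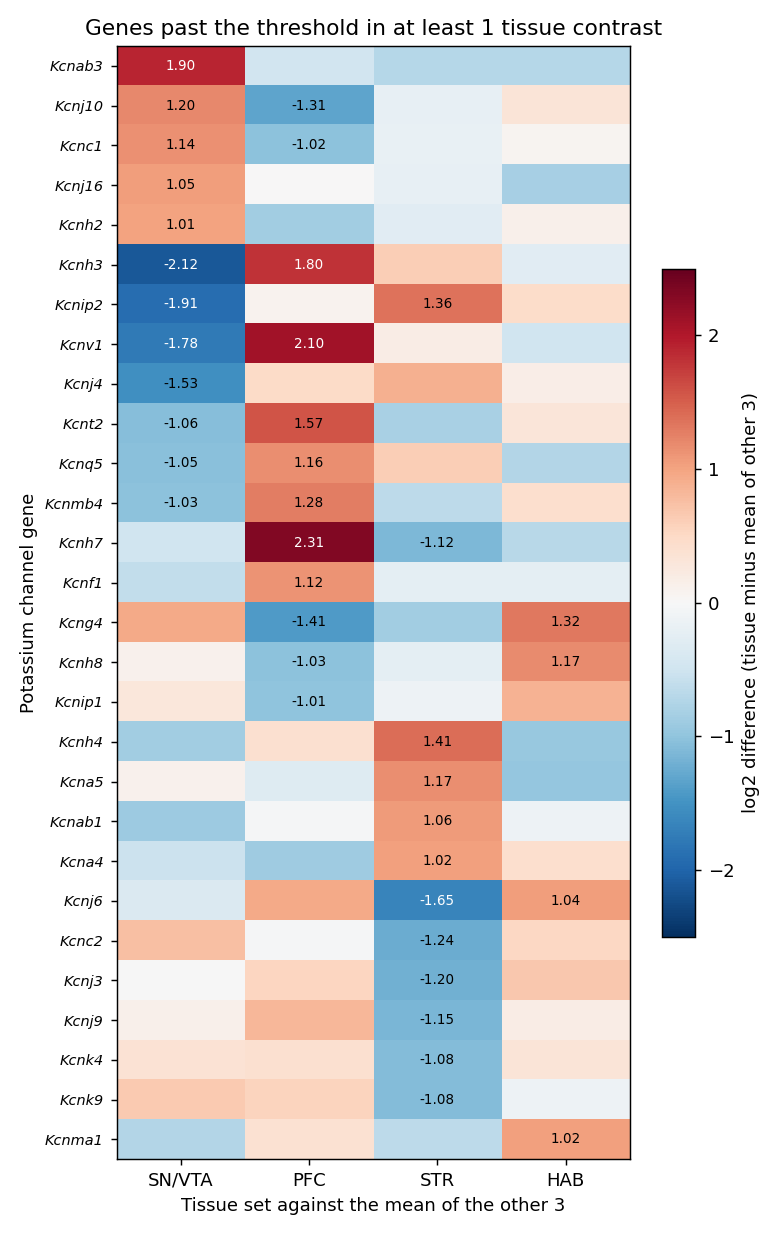
Heat map of the 28 potassium channel genes (rows) past the threshold in at least 1 of 4 contrasts (columns), each a tissue minus the mean of the other 3 on the log2 scale. Red is higher and blue lower, and a number is printed where the contrast passed; the deepest are Kcnh7 in PFC at 2.31 and Kcnh3 in SN/VTA at -2.12.

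Voltage-gated pore subunits gave 10 called genes of 26, and 5 of those were among the 8 genes of the ether-a-go-go group, Kcnh. Kcnh7, a subunit of the ERG-type current, had the largest difference of all 40 calls, in PFC. Its log2 level in PFC had a lowest value of 10.06, a median of 10.16 and a highest of 10.25, against 7.24, 7.87 and 8.31 in the other 36 arrays. No array of another tissue came near the cortical ones, and the difference was 2.31 ± 0.05 (SE), or 4.96-fold, with an adjusted p of 3.65e-26. Kcnh7 was also called lower in STR, by -1.12 ± 0.05 (adjusted p = 3.13e-18), though only 3 of 12 striatal arrays lay below all others, because HAB and STR overlapped.

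Kcnh3, Kcnh4 and Kcnh8 are the 3 genes of the ELK subfamily of Kcnh, whose currents activate at voltages near rest, and each had its highest level in a different tissue. Kcnh3 was highest in PFC, where its lowest, median and highest levels were 9.16, 9.56 and 9.85, against 6.25, 8.07 and 8.80 elsewhere. Those 2 sets did not overlap, and Kcnh3 was 1.80 ± 0.06 higher in PFC (3.48-fold, adjusted p = 1.51e-21). It was lower in SN/VTA, where it lay between 6.25 and 6.96, by -2.12 ± 0.06, so all 4 tissues were separated, in the falling order PFC, STR, HAB and SN/VTA. Kcnh4 was highest in STR, with 7.28, 7.61 and 7.85 there and 5.54, 5.97 and 7.0 in the other tissues. No array of another tissue reached the striatal ones, and the difference was 1.41 ± 0.04 (2.65-fold, adjusted p = 1.15e-23). PFC stood second for Kcnh4, and SN/VTA and HAB, the lowest pair, could not be separated (adjusted p = 0.298). Kcnh8 was highest in HAB, with 6.83, 7.22 and 7.42 against 5.0, 6.10 and 6.61 elsewhere, again without overlap, and the difference was 1.17 ± 0.07 (2.26-fold, adjusted p = 3.83e-15). In PFC Kcnh8 was -1.03 ± 0.07 lower, with 9 of 12 arrays below all others; without 1 of 3 single PFC arrays (ZT15 or ZT19 of the first cycle, ZT23 of the second) that difference went to between -0.97 and -1.0 and lost the call.

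Kcnh2, the ERG-type pore best known from the heart, was higher in SN/VTA. Its lowest, median and highest levels there were 8.29, 8.44 and 8.57, against 6.92, 7.42 and 8.13 in the other tissues, with no overlap. The difference of 1.01 ± 0.05 (2.01-fold, adjusted p = 4.59e-17) lay at the threshold: it was 0.93 after quantile normalization and 0.99 in the first cycle alone, and it was between 0.99 and 1.00, and not called, without any of 5 single arrays (SN/VTA ZT07 of the first and ZT23 of the second cycle, HAB ZT07 of the first and ZT03 and ZT23 of the second). The other 3 genes of the group, Kcnh1, Kcnh5 and Kcnh6, had ranges between tissue means of 0.97, 0.50 and 0.43 and were not called.

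The fast-closing Kcnc pores, which allow neurons to fire at high rates, were called in different tissues. Kcnc1 was higher in SN/VTA, with a lowest level of 9.43, a median of 9.61 and a highest of 9.80 against 7.73, 8.59 and 9.10 elsewhere (1.14 ± 0.05, 2.20-fold, adjusted p = 2.05e-18). It was lower in PFC, where it ran between 7.73 and 8.25 and lay below every array of the other tissues, by -1.02 ± 0.05; the second cycle alone gave -0.99, and leaving out 1 of 3 PFC arrays (ZT07 or ZT11 of the first cycle, ZT15 of the second) gave -1.0, just short of the threshold. Kcnc2 was lower in STR, with 7.19, 7.74 and 7.89 against 8.01, 8.93 and 9.63 in the other tissues. These did not overlap, and the difference was -1.24 ± 0.09 (2.37-fold lower, adjusted p = 7.14e-13). Within HAB Kcnc2 spread more than in any other tissue (SD 0.50 over 12 arrays, against 0.10 to 0.19 elsewhere). The HAB arrays with the 3 lowest Kcnc2 levels, 8.01, 8.33 and 8.69, had means over the thalamic markers of 8.57, 8.75 and 9.22, and the array with the highest, 9.63, had 10.26; the part of thalamic tissue in the Kcnc2 level was not tested. Across tissues the thalamic means were 9.17 to 9.82 in SN/VTA, 6.98 to 7.15 in PFC, 7.35 to 7.61 in STR and 8.57 to 10.26 in HAB. Pvalb, the defining gene of parvalbumin interneurons, a fast-firing cell type, averaged 9.21 in SN/VTA, 7.11 in PFC, 7.24 in STR and 7.29 in HAB, the same order of tissues as Kcnc1, although its means in PFC, STR and HAB lay within 1 or 2 SDs (0.14 to 0.18) of each other. The mean over the list of 4 genes, which also holds Gad1, Gad2 and Tac1, genes that other GABA neurons use too, was 8.84 to 8.96 in SN/VTA, 7.68 to 7.84 in PFC, 8.95 to 9.13 in STR and 7.07 to 7.88 in HAB. The part of these cells in the Kcnc1 level was not tested.

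Of the Shaker-type pores, 2 of 8 were called, both higher in STR. Kcna5 had a lowest, median and highest level of 6.75, 7.07 and 7.38 in STR, against 5.20, 5.98 and 6.58 in the other tissues. The striatal arrays stood clear of all others, by 1.17 ± 0.06 (2.25-fold, adjusted p = 1.56e-16). Kcna4, which carries a rapidly inactivating current, showed 9.08, 9.27 and 9.38 in STR against 7.59, 8.10 and 9.16 elsewhere, with 10 of 12 striatal arrays above all others. The difference of 1.02 ± 0.05 (adjusted p = 2.00e-16) held for the row used but not for the gene as a whole. A second row for Kcna4 had its highest mean in SN/VTA, 8.75, with 8.06 in PFC, 8.07 in STR and 7.94 in HAB, and correlated at -0.39 with the first over the 48 arrays. The mean of both rows gave 0.42, and centring each array on its median gave 0.92; without the STR array of ZT07 of the second cycle it was 1.00 and not called. Kcna1, Kcna2, Kcna3 and Kcna6 had ranges of 0.61, 0.91, 0.65 and 0.92. For Kcna6 this is the row used. A second, dimmer row of Kcna6 correlated with it at 0.09 and had means of 7.1 in SN/VTA, 6.7 in PFC, 7 in STR and 6.52 in HAB.

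Kcnq5, which contributes to the M-current that damps repeated firing, was higher in PFC and lower in SN/VTA. The PFC levels were 9.71, 9.86 and 9.99 (lowest, median, highest), against 7.86, 8.44 and 9.72 in the other tissues, with 11 of 12 cortical arrays above all others and a difference of 1.16 ± 0.06 (2.24-fold, adjusted p = 3.56e-17). In SN/VTA the levels of 8.01, 8.17 and 8.52 overlapped those of HAB, and the difference was -1.05 ± 0.06. A second, dimmer row of Kcnq5 differed little between tissues (means of 5.24, 4.86, 5.58 and 5.10 in SN/VTA, PFC, STR and HAB), and with both rows averaged the differences were 0.36 in PFC and -0.50 in SN/VTA. None of the 3 Kcnd pores of the subthreshold A-type current was called: Kcnd1, Kcnd2 and Kcnd3 had ranges of 0.57, 0.84 and 0.76.

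Modifier subunits, which pair with Kcnb pores and shift their gating, gave 3 called genes of 10. Kcnv1 was higher in PFC, at 9.77, 9.98 and 10.22 (lowest, median, highest), against 6.53, 8.05 and 8.72 in the other tissues. The sets did not overlap, and the difference was 2.10 ± 0.08 (4.29-fold, adjusted p = 2.00e-20). Kcnv1 was lower in SN/VTA by -1.78 ± 0.08 (3.43-fold, adjusted p = 2.07e-18), with 9 of 12 midbrain arrays below all others. Its tissue order, PFC, STR, HAB and SN/VTA, was that of Kcnh3. Kcnf1 was higher in PFC as well, at 8.18, 8.45 and 8.60 against 6.76, 7.33 and 7.75 elsewhere (1.12 ± 0.07, adjusted p = 1.21e-15), and the other 3 tissues lay close together. Kcng4 ran the other way: it was higher in HAB, at 8.15, 8.43 and 8.84 against 6.04, 6.81 and 8.43 (1.32 ± 0.06, 2.5-fold, adjusted p = 6.46e-17), and lower in PFC by -1.41 ± 0.06. Only 7 of 12 HAB arrays lay above all others, because SN/VTA was nearly as high. The pore subunit Kcnb2, itself with a range of 0.83, was not called.

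**Figure D2:**
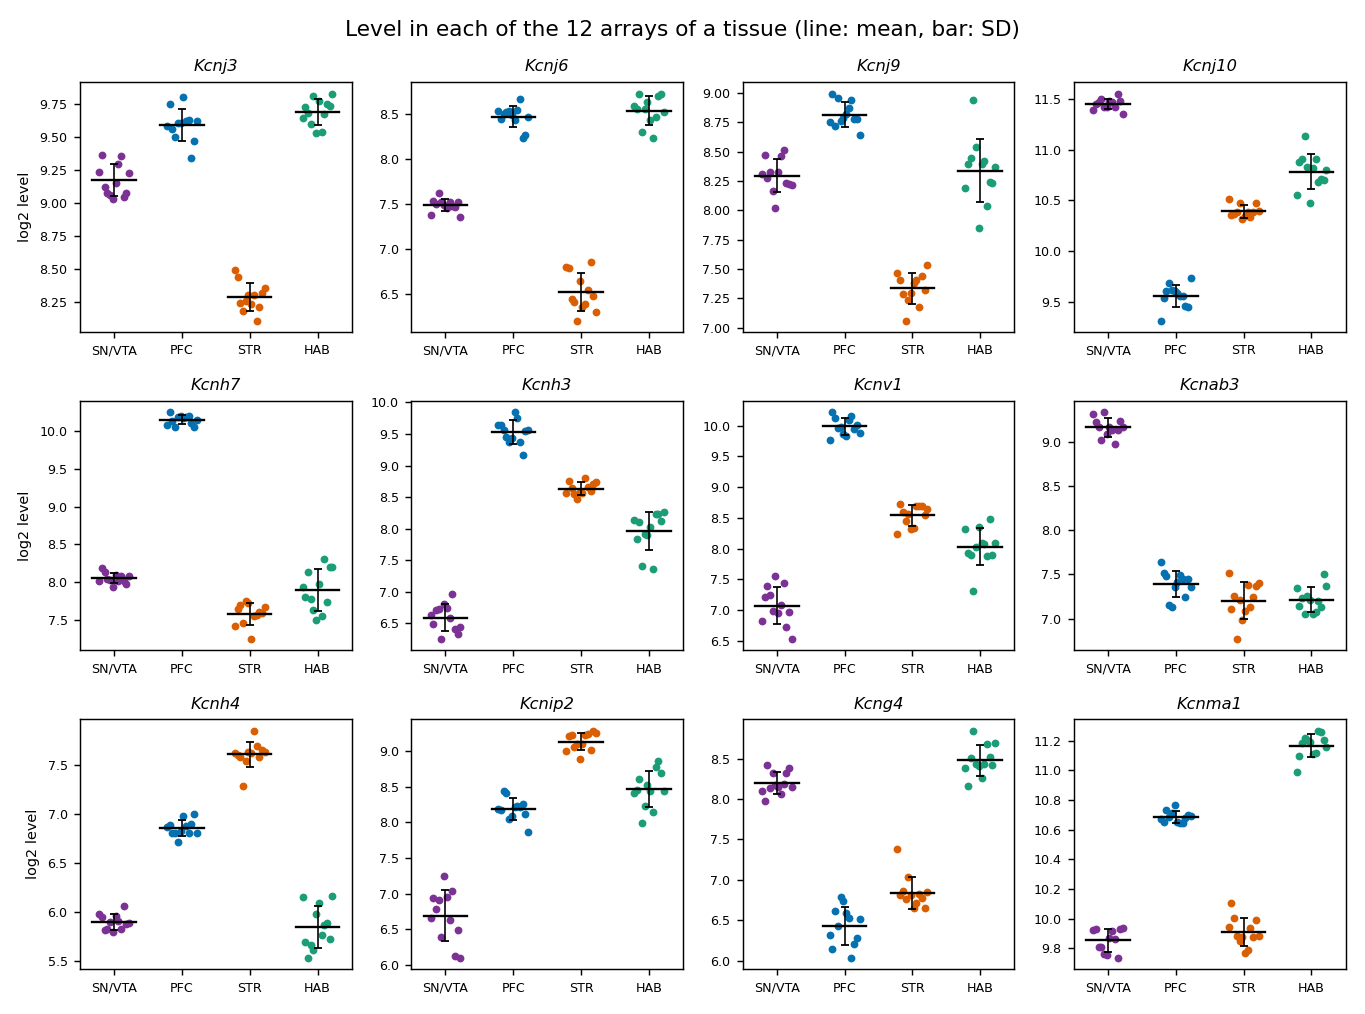
Log2 levels of 12 called genes in each of the 12 arrays of a tissue (points), with the tissue mean (line) and SD (bar); the vertical scale differs between genes. Kcnj3, Kcnj6 and Kcnj9 are lowest in STR in every array, Kcnh7, Kcnh3 and Kcnv1 are highest in PFC, and Kcnab3 is highest in SN/VTA.

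Inward rectifiers gave 6 called genes of 13, and the G-protein-gated channels among them were low in the striatum. Kcnj3, the common partner of these channels in the forebrain, had a lowest, median and highest level of 8.11, 8.28 and 8.49 in STR, against 9.03, 9.57 and 9.83 in the other tissues. Kcnj6, the subunit through which D2 autoreceptors slow dopamine neurons, had 6.2, 6.46 and 6.86 in STR, against 7.35, 8.44 and 8.72. Kcnj9 had 7.06, 7.35 and 7.54 in STR, against 7.85, 8.43 and 9.0. For all 3 genes each striatal array lay below each array of every other tissue.

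The differences in STR were -1.20 ± 0.04 for Kcnj3 (2.29-fold lower, adjusted p = 1.94e-22), -1.65 ± 0.05 for Kcnj6 (3.13-fold lower, adjusted p = 3.73e-21) and -1.15 ± 0.06 for Kcnj9 (2.22-fold lower, adjusted p = 3.97e-17). Over the 48 arrays, which share 4 tissues and so are dominated by the tissue means, Kcnj3 correlated at 0.96 with Kcnj6 and at 0.88 with Kcnj9, and Kcnj6 at 0.84 with Kcnj9. Kcnj5, the fourth gene of this group, did not go with them (-0.01 with Kcnj3, -0.14 with Kcnj6, -0.09 with Kcnj9) and had means of 6.54 in SN/VTA, 5.58 in PFC, 5.96 in STR and 6.26 in HAB. Among all the channel genes, the ones nearest to Kcnj6 were Kcnj3, the small-conductance channel Kcnn2 (0.94) and the leak channel Kcnk1 (0.93). Kcnj6 was called higher in HAB, by 1.04 ± 0.05, although HAB and PFC could not be separated (adjusted p = 0.371). In SN/VTA, where dopamine neurons lie, Kcnj6 averaged 7.48 ± 0.07 (SD, n = 12), below HAB at 8.53 ± 0.16 and PFC at 8.47 ± 0.12 and above STR at 6.52 ± 0.21. A second, dim row of Kcnj3 had means of 5.81, 5.87, 5.79 and 6.13 in SN/VTA, PFC, STR and HAB, and averaging it in gave -0.67 in STR, short of the threshold.

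Kcnj10, the inward rectifier with which astrocytes take up potassium, was high in SN/VTA and low in PFC. It had a lowest, median and highest level of 11.35, 11.46 and 11.55 in SN/VTA, against 9.32, 10.38 and 11.13 in the other tissues, without overlap (1.20 ± 0.04, 2.30-fold, adjusted p = 1.41e-21). The PFC arrays, between 9.32 and 9.73, all lay below the rest (-1.31 ± 0.04, 2.49-fold lower, adjusted p = 6.45e-23). Kcnj16, which joins Kcnj10 in astrocytes, was also higher in SN/VTA, at 8.01, 8.14 and 8.21 against 6.44, 7.13 and 7.61. Its difference of 1.05 ± 0.05 (adjusted p = 4.98e-17) was 0.98 both after quantile normalization and in the first cycle alone, and Kcnj16 was lowest in HAB rather than in PFC. The mean over 7 astrocyte markers ran from 9.59 to 9.73 in SN/VTA, 8.77 to 8.97 in PFC, 8.74 to 9.01 in STR and 9.19 to 9.53 in HAB, with Gfap and Fgfr3 called higher in SN/VTA and Slc1a2 and Slc1a3 at -0.23 and -0.34 there. The mean over 6 oligodendrocyte markers ran from 10.12 to 10.42, 8.23 to 8.78, 9.05 to 9.37 and 9.07 to 9.95 in the same order of tissues. The part of either cell type in the levels of Kcnj10 and Kcnj16 was not tested.

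Kcnj4, a strongly rectifying channel of forebrain neurons, was lower in SN/VTA. It had 6.03, 6.37 and 6.78 there against 7.12, 7.93 and 8.44 in the other tissues, without overlap (-1.53 ± 0.06, 2.90-fold lower, adjusted p = 1.87e-19). The other 7 tested inward rectifiers, including the pore of ATP-sensitive channels Kcnj11 (range 0.27) and its relative Kcnj8 (0.50), were not called.

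Two-pore-domain leak channels gave 2 called genes of 13, both lower in STR. Kcnk9, an acid-sensitive leak channel, had a lowest, median and highest level of 7.82, 8.05 and 8.20 in STR, against 8.55, 9.22 and 9.48 elsewhere. Kcnk4, a channel opened by stretch and lipids, had 6.97, 7.12 and 7.43 in STR, against 7.54, 8.26 and 8.60. Neither gene showed any overlap between STR and the rest, and the differences were -1.08 ± 0.03 (adjusted p = 3.79e-22) for Kcnk9 and -1.08 ± 0.07 (adjusted p = 1.82e-14) for Kcnk4, 2.12-fold lower in both. The Kcnk4 difference was -0.93 in the second cycle alone.

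Kcnk13 and Kcnk10 reached a range of 1 between tissues without being called against the mean of the other 3. Kcnk13, a leak channel known from microglia, averaged 8.03 in SN/VTA, 6.65 in PFC, 7.38 in STR and 7.31 in HAB, and the step of 1.38 ± 0.08 in SN/VTA over PFC was 2.61-fold (adjusted p = 5.43e-16). The mean over 4 microglial markers was 8.0 to 8.16 in SN/VTA and 7.99 to 8.18 in PFC. Its genes went different ways: Tmem119 averaged 7.16 in SN/VTA and 6.82 in PFC, and Cx3cr1 averaged 7.95 in SN/VTA and 8.25 in PFC. The part of microglia in the Kcnk13 level was not tested. Kcnk10, a relative of Kcnk4, was 1.03 ± 0.06 higher in SN/VTA than in STR (2.04-fold, adjusted p = 6.18e-16).

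Of 7 calcium- or sodium-activated channels 2 were called. Kcnma1, the pore of the large-conductance BK channel, had a lowest, median and highest level of 10.99, 11.19 and 11.27 in HAB, against 9.74, 9.93 and 10.77 in the other tissues. All HAB arrays lay above the rest, and the difference was 1.02 ± 0.03 (2.02-fold, adjusted p = 6.27e-23). PFC came second at 10.68 ± 0.04, and STR and SN/VTA, the lowest pair, could not be separated (adjusted p = 0.145). This call lay at the threshold: it was 0.98 with each array centred on its median, 0.99 in the first cycle alone, and 0.40 with a second, dim row averaged in.

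Kcnt2, a sodium-activated channel, was higher in PFC, at 9.26, 9.38 and 9.60 against 7.23, 7.65 and 8.73 in the other tissues (1.57 ± 0.05, 2.97-fold, adjusted p = 8.17e-23), with no overlap. It was lower in SN/VTA by -1.06 ± 0.05, though only 2 of 12 midbrain arrays lay below all others, and median centring took this to -0.91. Kcnt1, its relative, had a range of 0.96 with its highest mean in STR, 9.89. The small-conductance channels Kcnn2 and Kcnn3, which shape the pacemaking of dopamine neurons, were not called but reached a range of 1.09 each. Kcnn2 was 1.09 ± 0.05 higher in PFC than in STR (adjusted p = 1.40e-18), and Kcnn3 was lower in PFC than in HAB, by -1.09 ± 0.08 (adjusted p = 1.21e-13). In the first cycle alone Kcnn3 was called in PFC.

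Accessory subunits gave 5 called genes of 15, spread over 3 of the 4 subfamilies, with none among the Kcne genes. Kcnab3, a cytoplasmic beta subunit of Shaker-type pores, was the highest call in SN/VTA. Its lowest, median and highest levels were 8.98, 9.17 and 9.34 in SN/VTA, against 6.77, 7.25 and 7.64 in the other tissues, a clear gap. The difference was 1.90 ± 0.05 (3.72-fold, adjusted p = 1.36e-23), and PFC, HAB and STR followed at 7.39, 7.21 and 7.20. A second row for Kcnab3, with means between 5.60 and 5.78 in the 4 tissues, showed no such step, and with both rows averaged the difference came to 1.00, short of the threshold. Kcna1 correlated at 0.86 with Kcnab3 over the 48 arrays and was itself 0.55 ± 0.04 higher in SN/VTA. Among the pairs of Kcna1 to Kcna6 with a Kcnab gene this was the highest value. The lowest was -0.84, for Kcna6 with Kcnab1, in the Kcna6 row used. Outside those pairs, the inward rectifier Kcnj16 was as near to Kcnab3 (0.86) as Kcna1 was. Kcnab1, another beta subunit, was higher in STR, at 9.13, 9.31 and 9.46 against 7.61, 8.33 and 8.56 (1.06 ± 0.04, 2.09-fold, adjusted p = 7.97e-21), without overlap; median centring gave 0.96.

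The Kcnip genes encode calcium-binding proteins that bring Kcnd pores to the membrane. Kcnip2 was higher in STR, at 8.89, 9.16 and 9.29 (lowest, median, highest) against 6.10, 8.16 and 8.86, without overlap (1.36 ± 0.09, 2.56-fold, adjusted p = 1.19e-14). It was lower in SN/VTA by -1.91 ± 0.09 (3.76-fold, adjusted p = 2.32e-18), where its 12 values ran between 6.10 and 7.25. Kcnip1 was lower in PFC, at 7.77, 7.96 and 8.20 against 8.43, 8.94 and 9.55 (-1.01 ± 0.03, adjusted p = 1.04e-21); it was -1.0 after quantile normalization, -0.98 in the first cycle alone and between -0.99 and -1.0 without the PFC array of ZT03 or ZT19 of the second cycle. Over the 48 arrays, where the tissue means dominate, Kcnip2 went with Kcnd2 (r = 0.78) and Kcnip1 with Kcnd3 (r = 0.79). Pairs of a Kcnd and a Kcnip gene ran from that value down to -0.52 (Kcnd3 with Kcnip3). The channel genes nearest to Kcnip2 and Kcnip1 were no Kcnd pores but Kcnj4 (0.93) and Kcnh8 (0.92). Kcnip1 and Kcnip3 ran against each other (r = -0.81).

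Kcnmb4, the main neuronal beta subunit of the BK channel, was higher in PFC. It had 8.46, 8.73 and 8.84 there against 6.74, 7.18 and 8.31 elsewhere, without overlap (1.28 ± 0.04, 2.42-fold, adjusted p = 4.18e-23). In SN/VTA it was lower by -1.03 ± 0.04, with 11 of 12 arrays below all others. With a second, dimmer row of Kcnmb4 averaged in, the differences were 0.72 in PFC and -0.73 in SN/VTA, and centring each array on its median gave -0.88 in SN/VTA. Kcnma1 and Kcnmb4 correlated at 0.77 over the 48 arrays, but HAB led for the pore and PFC for the beta subunit. Kcnmb1, another beta subunit, had its highest mean in HAB at 7.63 and its lowest in PFC at 6.45, and the step of -1.18 ± 0.06 in PFC against HAB was 2.27-fold (adjusted p = 1.10e-17).

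Kcne2, a small subunit abundant in choroid plexus epithelium, split the habenular arrays into a high and a low set. In HAB 7 arrays, all 6 of the first cycle and the ZT15 array of the second, had Kcne2 between 6.39 and 7.14, and the other 5 had it between 4.92 and 5.47. The same 7 arrays had a mean over 5 choroid plexus genes of 9.46 to 9.91, and the other 5 had 7.43 to 7.87. In the other tissues Kcne2 lay between 4.89 and 5.58 in SN/VTA, 5.05 and 5.54 in PFC and 5.22 and 5.84 in STR. Second minus first cycle, Kcne2 in HAB differed by -1.09 ± 0.17 (adjusted p = 0.000566), the only channel gene called in that comparison (background 1.12%). That cycle contrast was added after the data were seen, and a test of whether it differed between tissues gave an adjusted p of 0.0518 for Kcne2. In the first cycle alone Kcne2 was called higher in HAB than in the other tissues. The part of choroid plexus in the Kcne2 level was not tested beyond these values.

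**Figure D3:**
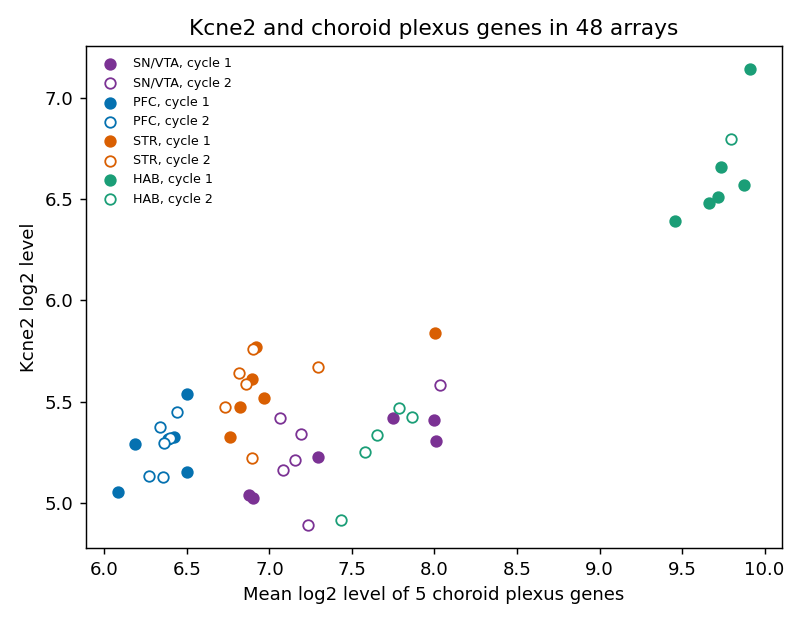
Kcne2 log2 level (vertical) against the mean log2 level of 5 choroid plexus genes (horizontal) in each of the 48 arrays, coloured by tissue, filled for the first 24-h cycle and open for the second. The 7 HAB arrays at 9.46 to 9.91 stand apart at Kcne2 levels of 6.39 to 7.14, and the 5 other HAB arrays lie among those of SN/VTA and STR.

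Genes that work with these channels under other names were counted for comparison. Of 23 channel partners tested, 2 were called higher and 1 lower in PFC, 2 were higher in HAB, and 0 were called in SN/VTA or STR. In PFC these were Dpp10, which regulates Kcnd pores, at 1.22, the scaffold Dlg2 at 1.17, and the BK auxiliary subunit Lrrc55 at -1.05. In HAB Lrrc55 was one of the 2, at 10.06 ± 0.15 (SD, n = 12) against 7.75 ± 0.12 in SN/VTA, 7.40 ± 0.23 in PFC and 7.54 ± 0.19 in STR, so HAB led for this subunit as it did for the BK pore. The other was Abcc8, the sulfonylurea receptor of ATP-sensitive channels, at 8.65 ± 0.2 in HAB and 7.44 to 7.83 in the means of the other tissues. The 6 tested potassium pumps and cotransporters gave 0 calls in any tissue, with median differences of 0.43 in SN/VTA, -0.32 in PFC, -0.28 in STR and 0.16 in HAB.

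Time of day was read from the fit of a 24-h cosine, with the amplitude given from mean to peak on the log2 scale. No channel gene passed in the rhythm test of any single tissue, where the background was 0.162% in SN/VTA, 0.18% in PFC, 0.0174% in STR and 0.0174% in HAB. None passed for a rhythm shared by the 4 tissues, where 958 genes did (5.55%), nor for a difference of rhythms between tissues (0.029%). At an unadjusted p under 0.05, 10 of 84 channel genes (11.9%) and 19.2% of all genes passed for the shared rhythm, and 3 and 6.65% for the difference. In single tissues, at the same limit, it was 11 channel genes in SN/VTA (9.88% of all genes), 11 in PFC (11.6%), 5 in STR (8.51%) and 7 in HAB (6.3%). On the same arrays 8 of 8 clock genes passed for the shared rhythm, with amplitudes of 0.24 to 0.64. The channel genes had amplitudes of 0.013 to 0.134 with a median of 0.05, beside 0.042 for all genes.

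**Figure D4:**
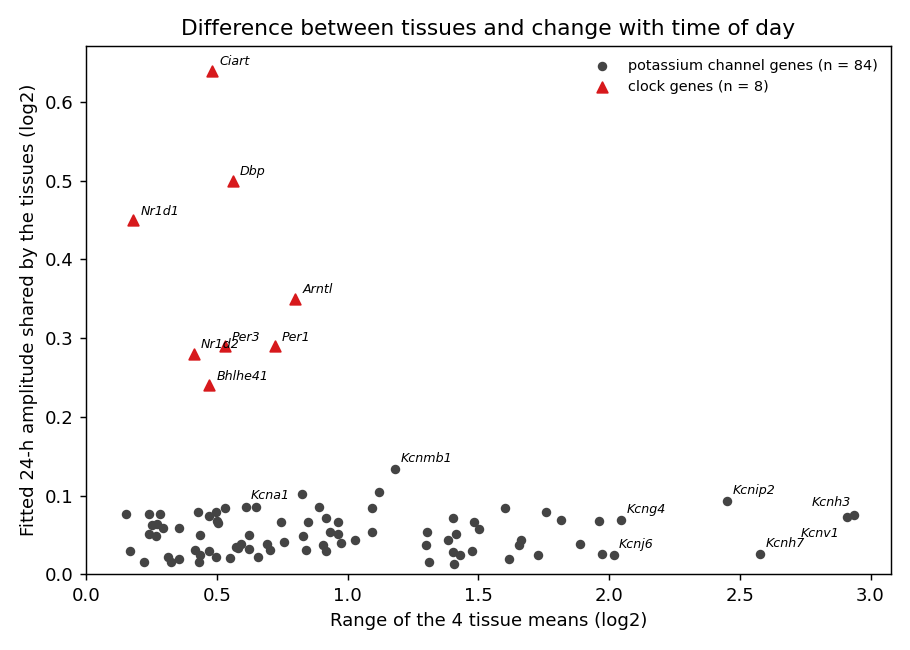
Range of the 4 tissue means (horizontal, log2) against the fitted 24-h amplitude shared by the tissues (vertical, log2) for the 84 potassium channel genes (dots) and 8 clock genes (triangles). The channel genes lie along the bottom with amplitudes up to 0.134 and the clock genes above them at 0.24 to 0.64, within tissue ranges of under 1.

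The genes nearest to a shared rhythm were Kcna1, Kcnj3 and Kcnk12. Kcna1, a low-voltage-activated pore of axons, had an amplitude of 0.09 ± 0.02 with its peak at ZT10.4, or 1.13-fold from trough to peak (adjusted p = 0.0586). As deviations from the tissue means over 8 arrays per time, it stood at 0.00 at ZT03, 0.02 at ZT07, 0.10 at ZT11, 0.02 at ZT15, -0.05 at ZT19 and -0.10 at ZT23, with SDs of 0.06 to 0.18. The largest of these SDs was close to the whole range of the 6 means. Kcnj3 had an amplitude of 0.07 ± 0.02 with its peak at ZT12.1 (adjusted p = 0.081), and the leak subunit Kcnk12 one of 0.09 ± 0.03 with its peak at ZT18 (adjusted p = 0.0995). Several alternatives moved 1 of these genes past the threshold: Kcna1 with only genes of a mean of at least 6 tested (0.0423), with an intensity trend and robust prior (0.0357) and without PFC (0.0272), and Kcnj3 without HAB (0.0121). Of 48 fits that each left out 1 array, Kcna1 passed in 9: those without PFC at ZT07 or ZT19 of the first cycle or ZT15, ZT19 or ZT23 of the second, STR at ZT11 or ZT19 of the second, or HAB at ZT03 of the first or ZT23 of the second. Kcnj3 passed without HAB at ZT03 of the first or ZT15 of the second cycle, Kcnk12 without STR at ZT19 of the second, and Kcnh5 without HAB at ZT19 of the second.

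The average of the 3 dark times (ZT15, ZT19, ZT23) less that of the 3 light times (ZT03, ZT07, ZT11) gave 0 called channel genes over all tissues in limma, where 1.82% of all genes were higher in the dark and 2.02% lower. At an unadjusted p under 0.05, 8 of the 84 passed, beside 15.3% of all genes. The 84 differences lay between -0.11 and 0.18, the 95% intervals had a median reach of 0.09 to either side, and no bound went past 0.45 (1.36-fold), reached by Kcne2. The smallest p belonged to Kcnh5 at 0.09 ± 0.03 (adjusted p = 0.089), Kcnk12 at 0.11 ± 0.04 (adjusted p = 0.0899) and Kcna1 at -0.08 ± 0.03 (adjusted p = 0.187). Leaving out 1 array called 1 or 2 of these genes in 5 of 48 fits: Kcnh5 without SN/VTA at ZT07 or HAB at ZT19, Kcnk12 without SN/VTA at ZT07 or HAB at ZT07 or ZT11, and Kcna1 without HAB at ZT23, all of the second cycle.

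Within single tissues 0 channel genes were called dark against light too. The background for higher and lower was 0.0232% and 0.029% in SN/VTA, 0.209% and 0.168% in PFC, 0.168% and 0.18% in STR, and 0.0637% and 0.0579% in HAB. At an unadjusted p under 0.05, 0 passed in SN/VTA (3.62% of all genes), 4 in PFC (9.68%), 4 in STR (11.4%) and 10 in HAB (7.63%). The 95% intervals were wider than over all tissues, with a median reach of 0.18 to either side in each tissue. The widest bounds, each of Kcne2, were 0.68 in SN/VTA, 0.55 in PFC, 0.7 in STR and 0.95 (1.93-fold) in HAB. In HAB Kcnmb1, Kcnh4 and Kcna1 had the smallest p, at -0.29 ± 0.08, -0.22 ± 0.06 and -0.22 ± 0.07 (adjusted p = 0.185, 0.23 and 0.262). This rested in part on 1 library: without the HAB array of ZT23 of the second cycle, 4 channel genes were called lower in the dark, Kcna1 at -0.32 (adjusted p = 0.00496), Kcnmb1 at -0.34 (adjusted p = 0.0493), Kcnj2 and Kcnj4. In STR Kcnmb2 was called, at 0.38 (adjusted p = 0.0382), without the array of ZT23 of the first cycle.

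The sequence that clock proteins bind, the E-box CACGTG, was looked for in the 300 bases around the transcript starts of each gene (250 before and 50 after), in the RefSeq promoters of GRCm38.p6. A gene can have several such windows, as 15 of the channel genes do, and was counted where any of them held the motif. The motif reads the same on both strands. Of the 65 channel genes with a window, 6 held it (9.23%), beside 8.09% of 27025 genes and 3 of 8 clock genes. Counted over windows it was 7.78% of the 90 windows of channel genes and 7.15% of all windows. The 5 channel genes that carry it before a transcript start and the 3 clock genes are shown with 29 bases on each side, 5′ to 3′ on the strand of the gene and with the E-box in capitals, to set promoters with the same motif beside unlike amplitudes.
Kcnab1 (chr3:65108823-65108886, plus strand): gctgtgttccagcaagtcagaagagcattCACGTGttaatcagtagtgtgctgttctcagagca
Kcnab1 (chr3:65188029-65188092, plus strand): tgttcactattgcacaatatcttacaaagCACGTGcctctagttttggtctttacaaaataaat
Kcnj2 (chr11:111066051-111066114, plus strand): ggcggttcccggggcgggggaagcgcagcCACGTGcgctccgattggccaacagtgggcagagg
Kcnh4 (chr11:100759831-100759894, minus strand): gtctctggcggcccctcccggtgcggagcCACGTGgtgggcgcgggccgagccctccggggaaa
Kcnn4 (chr7:24370101-24370164, plus strand): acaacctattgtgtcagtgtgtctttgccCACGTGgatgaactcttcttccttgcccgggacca
Kcne4 (chr1:78816828-78816891, plus strand): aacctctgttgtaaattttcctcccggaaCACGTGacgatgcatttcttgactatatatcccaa
Ciart (chr3:95882310-95882373, minus strand): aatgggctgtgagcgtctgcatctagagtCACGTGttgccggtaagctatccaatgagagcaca
Per1 (chr11:69098754-69098817, plus strand): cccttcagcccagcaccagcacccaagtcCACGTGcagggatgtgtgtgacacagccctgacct
Bhlhe41 (chr6:145865539-145865602, minus strand): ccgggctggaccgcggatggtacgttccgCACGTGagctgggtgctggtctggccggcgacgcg
The shared 24-h amplitudes of these clock genes were 0.64 for Ciart, 0.29 for Per1 and 0.24 for Bhlhe41, and each passed. Those of the channel genes were 0.03 for Kcnab1, 0.07 for Kcnj2, 0.08 for Kcnh4, 0.08 for Kcnn4 and 0.02 for Kcne4, with adjusted p of 0.736, 0.538, 0.121, 0.245 and 0.968. The windows of Kcnj2, Kcne4 and Bhlhe41 are at the outer start of the gene's RefSeq span. The transcript starts of Kcnab1 (2 windows), Kcnh4, Kcnn4, Ciart and Per1 lie inside it, by 159802 and 238891 bases in Kcnab1, 337 in Kcnh4, 437 in Kcnn4, 29 in Ciart and 3841 in Per1. The sixth gene, Kcnk5, holds the motif after its start. A match is a description of these letters and not a bound site. The GC box GGGCGG (either strand) stood in the windows of 42 channel genes (64.6%) and 38.2% of all genes, and the TATA box TATAAA (either strand) in 4 (6.15%) and 15.7%. Counted over windows, the GC box was in 48.9% of those of channel genes and 35.7% of all. The TATA box was in 4.44% and 13.6%.

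Kcnmb1 was the 1 channel gene called for a 12-h component, tested beside the 24-h cosine over all 48 arrays (background 0.0985%, 17 genes). Relative to the tissue means, its 8 arrays per time averaged 0.09 at ZT03, 0.23 at ZT07, -0.17 at ZT11, -0.21 at ZT15, 0.12 at ZT19 and -0.06 at ZT23, with SDs of 0.10 to 0.26. At ZT11 and ZT15 all 8 deviations were below 0, with highest values of -0.05 and -0.04. The fitted 12-h amplitude was 0.17 ± 0.03 with peaks at ZT6.7 and 12 h later (adjusted p = 0.0309). SN/VTA, STR and HAB were highest at ZT07 and PFC at ZT19, and HAB at ZT07 reached 8.12 and 8.22, above its other 10 arrays. The gene is annotated by RefSeq at chr11:33962955-33973641 (GRCm38.p6), inside the span of Kcnip1, and Kcnip1 had a 12-h amplitude of 0.04 (adjusted p = 0.831). The call was lost after quantile normalization (adjusted p = 0.0614) and in 12 of 48 fits that each left out 1 array, with adjusted p between 0.0114 and 0.0874 over the 48. Those 12 arrays were SN/VTA ZT19, PFC ZT19, STR ZT07 and HAB ZT07 of the first cycle, and SN/VTA ZT07 and ZT23, PFC ZT19, STR ZT19 and ZT23, and HAB ZT07, ZT19 and ZT23 of the second.

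**Figure D5:**
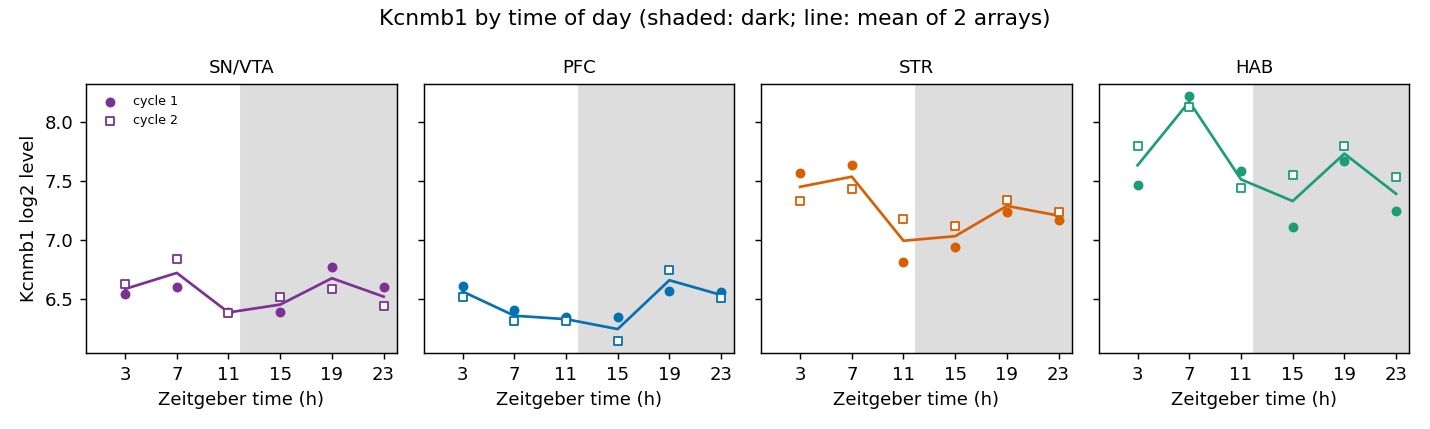
Kcnmb1 log2 level by Zeitgeber time in each tissue, filled points for the first 24-h cycle, open squares for the second, a line through the mean of the 2 arrays and grey shading for the dark. Levels at ZT11 and ZT15 lie below the tissue mean in all 4 tissues; HAB at ZT07, at 8.12 and 8.22, is the highest point of the plot.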

How the data were processed

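The values analysed are the log2 levels per probe set that the authors deposited for 48 arrays; that they are log2 was read from their range (1.09 to 13.65, array medians 5.84 to 6.07), and how they were background-corrected, summarised and normalized is not given in the sources used here. Each of the 48 columns carried the name of 1 sample. Of 41345 rows, 23521 had 1 gene symbol; the row with the highest mean stood for a gene (22180 genes), and 17258 with a mean of at least 5.05 were tested. Array number limits the precision, and the level of background is unknown.

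All genes were fitted with limma 3.58.1 in R 4.3.3 (lmFit, eBayes, two-sided, Benjamini-Hochberg adjustment over all genes), with data.table (version 1.17.8); plots used matplotlib 3.10.9 under Python 3.11.15. Tissues were compared over 24 tissue-by-time groups, and rhythms by the cosine and sine of 24 h. The 2 arrays of a group are separate pools of mice per the labels, 1 from each cycle; the deviations of arrays of the same cycle correlated at 0.036 on average over 60 pairs within a tissue, with 14 over 0.1 and a highest of 0.41. HAB had 7 of those 14 pairs, and 193 genes (1.12%) differed between its cycles. For arrays of the same time and cycle in different tissues the mean correlation of deviations was 0.036 over 36 pairs. Of those, 4 were over 0.1, with a highest of 0.25. The tissue and time fits had no block for the cycle, and the fit with one was an alternative. A block for the cycle does not cover mice that tissues of 1 time may share. The fits tried on simulated data were HAB against the other tissues, the PFC rhythm, the shared rhythm and the difference of rhythms. The 12-h component and dark minus light over all tissues were tried too. The contrast of cycles, the pairwise tissue tests and dark against light in single tissues were not. The simulated noise was drawn independently for each array, without the choroid plexus split or the cycle difference of HAB. The smallest rhythm put in had an amplitude of 0.1, above the median of the channel genes, so recovery of smaller ones was not tried.

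Genes are named where they passed a test, came closest where none passed, led their subfamily in range between tissues, or lay at the filter. The genes and lists were chosen with earlier results of these data known.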

Additional observations from a re-analysis of the deposited data

Results flagged for a closer look

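Kcne1, a small subunit that slows Kcnq1 channels, was picked among the channel genes for opposite changes between cycles in SN/VTA and STR. The pair counts below are the rule by which it was picked, and no difference between tissues was established for it. Kcne1 lay near the filter of 5.05. Its mean was 5.41 over the 48 arrays, 5.3 in SN/VTA, with values down to 4.98, and 5.73 in STR. In the second cycle minus the first Kcne1 was higher in all 6 pairs of arrays of the same time in SN/VTA (0.32 on the log2 scale). It was lower in all 6 in STR (-0.20), a difference of 0.52. In limma the test of that difference over the 4 tissues gave an adjusted p of 0.597, which missed the threshold.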

How the results depend on the processing

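No difference of a named gene turned round in direction under any alternative. Centring each array on its median moved the median of all genes in SN/VTA to 0.20 and in STR to -0.12. SN/VTA then had 4 genes lower, STR 3 higher and HAB 1 lower (Kcna5). Kcnma1 in HAB was lost, while Kcng4 and Kcnk13 in SN/VTA and Kcnk10 in STR were gained. After quantile normalization SN/VTA had 3 higher, HAB 2 lower (Kcna5 and Kcnh4) and the 12-h component 0, and Kcnip1 was lost in PFC. The first cycle alone gave SN/VTA 3 higher and HAB 1 lower (Kcna5). It also lost Kcnip1 and gained Kcnn3 in PFC, and lost Kcnma1 and gained Kcne2 in HAB. The second cycle alone lost Kcnc1 in PFC and Kcnk4 in STR and gained Kcng4 in SN/VTA. Averaging all rows of a gene lost Kcnab3, Kcnmb4 and Kcnq5 in SN/VTA and Kcnmb4 and Kcnq5 in PFC. It also lost Kcna4 and Kcnj3 in STR and Kcnma1 in HAB. The shared 24-h rhythm had 1 gene with a mean of at least 6, with an intensity trend and robust prior, without PFC and without HAB. With the 6 times as groups in place of the cosine, 1 gene was called (Kcnmb1). That fit asks for any difference between times and not for a 24-h curve. The trend and robust prior also gave 1 gene a rhythm in SN/VTA (Kcnj9) and 2 in PFC (Kcnh3 and Kcnip4). The cause of these shifts was not tested.

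Leaving out 1 array at a time gave 4 to 5 higher and 7 lower in SN/VTA, 7 and 4 to 5 in PFC, 4 to 5 and 7 in STR, and 4 and 0 to 1 in HAB (Kcna5, without the ZT07 array of the second cycle). It gave 0 to 2 genes for the shared rhythm, 0 to 1 for the 12-h component, and dark against light 0 to 1 in STR, 0 to 4 in HAB and 0 to 2 over all tissues. With the replicate number (cycle) as a block, the pairing by cycle left each count as it was, with 5 higher and 7 lower in SN/VTA and an adjusted p of 0.0317 for the 12-h component of Kcnmb1, and it changed no call. In 37 of 2320 values of single genes over all alternatives the tissue call was lost, for 16 genes and tissues. The leave-one-out fits of the 12-h component and the contrast of cycles were added after the data were seen. Pools of 3 mice, 2 arrays per time and an unknown background limit the detection of small daily changes.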
